A study of Mus musculus with 6 samples.

Results

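The 3 control hearts of a mouse study of the Y-box protein YBX1 are described here as a reference of the adult heart's polyadenylated RNA. In that study, control littermates stood beside mice lacking Ybx1 in cardiomyocytes, all aged 11 months, with 3 hearts of each genotype. Only the controls, labelled with the genotype Control and the tissue Heart, are used. The labels name no strain, sex, Cre driver, control allele or heart chamber. Each heart was a separate library, numbered here as in the labels. A gene was a member when its deposited CPM (its counts per 1000000 counts of the heart) was at least 1 in all 3 hearts, and 12683 of the 78409 genes in the table met this rule. They held between 99.5% and 99.6% of the counts of each heart. The members just inside the limit were Tspan33, at 1.39, 1.00 and 1.34 deposited CPM in hearts 1, 2 and 3, and Dnaaf2, at 1.18, 1.00 and 1.24. The genes just outside were Uqcrh-ps2, at 0.998, 1.10 and 1.91, and Ovgp1, at 2.53, 1.67 and 0.998.

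The heart is a muscle that never rests, and its cardiomyocytes are filled with sarcomeres, the contractile units of thick myosin and thin actin filaments, and with mitochondria that make ATP mostly from fatty acids. Cardiomyocytes make up most of the organ's mass, while most of its nuclei belong to endothelial cells, fibroblasts, mural cells and macrophages. Mitochondria carry a small circular genome of their own, read from both strands as long transcripts that are cut into rRNAs, tRNAs and mRNAs. Most of its genes lie on the strand called heavy here, and only a few on the light strand.

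The total counts were 12270796, 13469419 and 14524785 in hearts 1, 2 and 3, and 25221 to 26274 genes had a count in a heart. All values below are CPM normalised by TMM factors (normalised CPM) unless deposited CPM is named, and values in sets of 3 are for hearts 1, 2 and 3 in that order. The TMM factors were 1.07, 0.853 and 1.10, so heart 2 stood apart from the others in scaling. Members differed by 2-fold or more between 2 hearts in 430 cases for hearts 1 and 2, 152 for hearts 1 and 3 and 627 for hearts 2 and 3. No pair agreed within counting noise, with a chi-square per gene of 14.7 to 88.9 in the mean and of 1.17 to 3.06 in the median. Heart 1 carried the X-inactivation RNA Xist (362, 0.609 and 1.94 normalised CPM), and hearts 2 and 3 carried the Y-linked genes Ddx3y (1.07, 137 and 101) and Uty (0.153, 34.5 and 21.7). Sex and heart therefore cannot be told apart in any gene in which heart 1 differs from the others. With 1 group of animals there is no contrast to test, so no p-value is given, and every fold below is the highest heart over the lowest.

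Most of the counts of these hearts lay in genes of the mitochondrial genome or in their near-identical nuclear copies. The 2 mitochondrial rRNAs took 24.5%, 26.3% and 20.5% of all counts, and the 13 mitochondrial mRNAs 23.7%, 27.7% and 24.2%. The 28 pseudogenes in the nucleus that copy mitochondrial genes took a further 11.7%, 14.0% and 12.5%. Together with the tRNAs this came to 59.9%, 68.1% and 57.2% (61.7% ± 5.66, SD, n = 3), highest in heart 2 and lowest in heart 3. The Wilson 95% interval of such a share in a single heart was narrow, 59.8% to 59.9% in heart 1, and covers counting error only, since the reads carried no molecular identifiers. Because these classes are so abundant, 50% of the counts lay in 8, 7 and 10 genes. Without the mitochondrial genes and their copies, 493, 523 and 463 genes were needed to reach 50%.

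**Figure D1:**
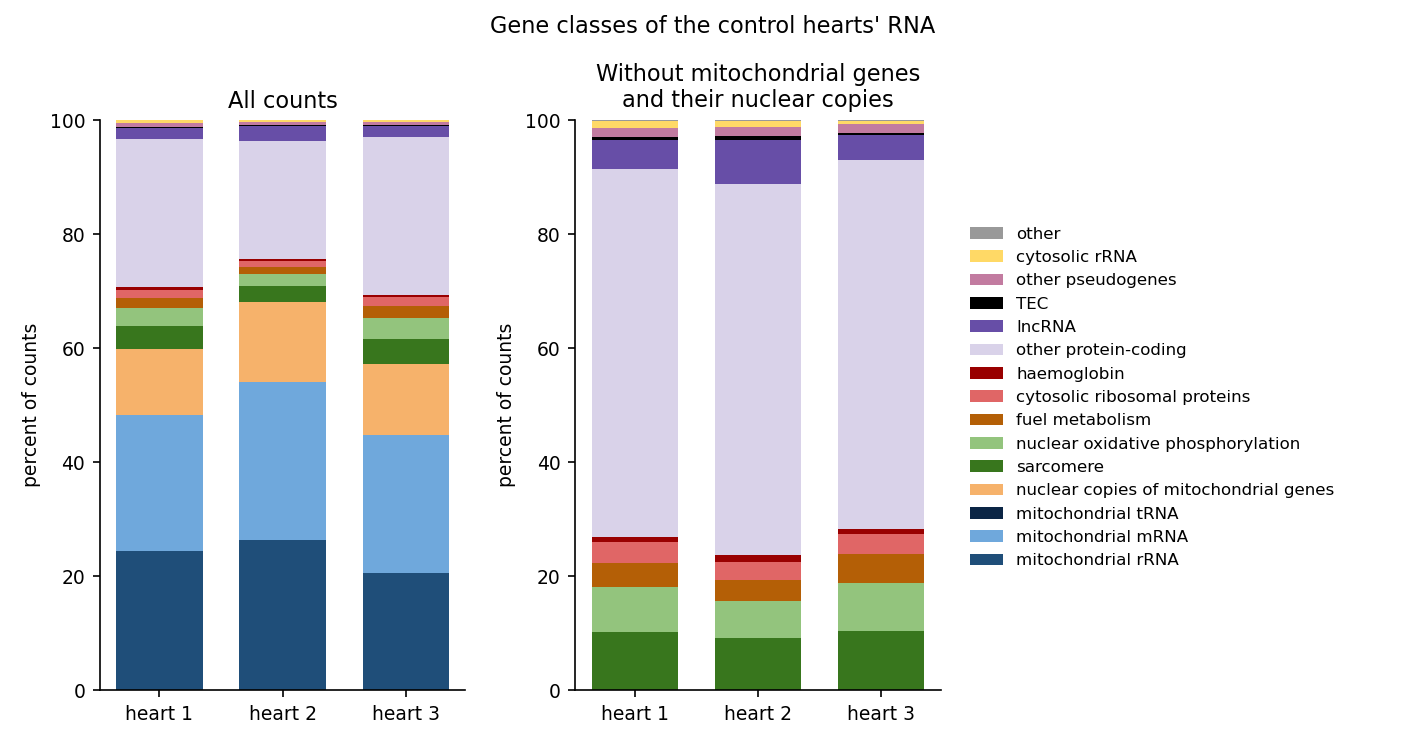
Stacked bars of the percent of counts in each gene class, 1 bar per control heart, for all counts (left) and without mitochondrial genes and their nuclear copies (right). Mitochondrial rRNA, mRNA and nuclear copies reach 68.1% in heart 2, and lncRNA takes 7.70% of the nuclear counts there.

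The most abundant single RNA was mt-Rnr2, the large mitochondrial ribosomal RNA, at 213751, 286749 and 173294 normalised CPM, with heart 2 highest. The small mitochondrial rRNA mt-Rnr1 stood at 15424, 21638 and 13092 normalised CPM. Mitochondrial mRNAs of the respiratory chain came next after mt-Rnr2, and 6 of them stood above mt-Rnr1 in normalised CPM. Per kilobase of exon, mt-Co3 and mt-Co2, subunits of cytochrome c oxidase, stood at 64692 ± 14538 and 64376 ± 16145 normalised CPM (SD, n = 3), levels that did not differ beyond their spread. The complex I subunit mt-Nd1 stood at 43420 ± 10268 and the cytochrome b mRNA mt-Cytb at 34332 ± 8549 on the same scale. At the other end was mt-Nd6, the only mRNA of the light strand, at 116 ± 75.1 normalised CPM per kilobase.

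Several of the most abundant rows are nuclear copies whose reads cannot be told apart from those of the mitochondrial gene. The first 60 bases of the transcripts in GENCODE M21 (GRCm38) are printed for 3 mitochondrial genes and 4 copies, since they show where a read can and cannot be assigned. Capitals mark bases of a copy that differ from its mitochondrial gene, and positions are counted from 1 at the 5′ end of the mitochondrial transcript.
mt-Co3: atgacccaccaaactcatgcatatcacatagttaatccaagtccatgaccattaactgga
Gm28437: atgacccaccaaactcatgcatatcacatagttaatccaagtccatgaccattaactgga
mt-Co2: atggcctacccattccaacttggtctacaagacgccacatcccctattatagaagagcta
Gm28661: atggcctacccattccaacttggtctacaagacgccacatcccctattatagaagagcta
Gm13341: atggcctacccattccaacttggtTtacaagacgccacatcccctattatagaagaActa
mt-Nd3: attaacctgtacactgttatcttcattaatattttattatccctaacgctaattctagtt
Gm28438: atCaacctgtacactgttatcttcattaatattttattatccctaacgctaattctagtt
Gm28437 was identical to mt-Co3 over 783 aligned bases, and their deposited CPM differed by at most 0.00503% in any heart. Gm28661 was identical to mt-Co2 over 681 bases, and their deposited CPM differed by at most 0.0309%. Atp6-ps was identical to mt-Atp6 over 678 bases, with a difference of at most 0.187%. These pairs are thus counted equally, and the level of each member of a pair is uncertain. Other copies were listed below their mitochondrial gene. Gm28439 was identical to mt-Nd4 over 876 bases and stood at 3086, 2855 and 2169 normalised CPM against 28558, 37283 and 25887 for mt-Nd4, so identity over the aligned bases did not by itself go with equal counts. Gm28438 differed from mt-Nd3 by T3C in this window, with 99.7% identity over 345 bases, and was listed at 4210, 6949 and 4465 normalised CPM against 8424, 13910 and 8938 for mt-Nd3. Gm13341 carried C25T and G57A in this window, with 95.9% identity to mt-Co2, and stood at 2774, 4083 and 2768 normalised CPM against 37748, 56784 and 37568 for mt-Co2. The unnamed lncRNA ENSMUSG00000138098 was listed at 4212, 6954 and 4467 normalised CPM, nearly the values of Gm28438, and each of these rows was close to 50% of mt-Nd3. How reads were shared among such rows was not tested.

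All 31 members on the mitochondrial genome were highest in heart 2 or heart 3. Of them 28 were highest in heart 2, against 40.1% of all members. In deposited CPM, 23 were highest in heart 2, against 16.8% of all members, and 3 in heart 1. The strands differed in how far the hearts were apart, a split made after the values were seen. The 12 heavy-strand mRNAs summed to 222282, 324997 and 220509 normalised CPM, and their median fold was 1.52. The light-strand mt-Nd6, a complex I subunit, stood at 26.7, 103 and 51.3 normalised CPM, a fold of 3.87. Heart 2 was high and heart 1 low, with heart 3 between them. The 5 light-strand tRNAs among the members had a median fold of 3.55, against 1.71 for the 11 heavy-strand tRNAs. The glutamate tRNA mt-Te stood at 2.52, 15.6 and 7.77 normalised CPM and the alanine tRNA mt-Ta at 2.29, 11.5 and 9.65, with heart 1 lowest in each. All 8 light-strand tRNA genes were lowest in heart 1, as were 11 of the 14 heavy-strand ones, members or not. In 7 of the 8 this held under every scaling tried, and mt-Ts1 was lowest in heart 3 when the hearts were scaled on nuclear genes. The library protocol as described does not mark the strand, so reads of light-strand genes cannot be told apart from heavy-strand reads over the same bases, and tRNA genes are far shorter than the RNAs that run into them.

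By biotype, 10912 members were protein-coding, 863 lncRNA, 442 processed pseudogenes and 305 of the class TEC, loci that await experimental evidence of a transcript. Protein-coding genes, the mitochondrial ones included, took 60.4%, 56.1% and 64.0% of the counts and lncRNA 2.03%, 2.46% and 1.90%. Of the nuclear counts, lncRNA took 5.06%, 7.70% and 4.44% and TEC 0.538%, 0.782% and 0.399%. In lncRNA and TEC heart 2 was highest and heart 3 lowest, while the protein-coding share was lowest in heart 2 and highest in heart 3. The highest lncRNA was Malat1, a nuclear speckle RNA, at 4134, 9289 and 3020 normalised CPM. It was followed by ENSMUSG00000138098, which ran with the mitochondrial copy above, and by Gm44442, at 966, 946 and 1076. Of the cytosolic rRNAs, which have no poly(A) tail, Rn18s-rs5 was listed at 4526, 3980 and 2382 normalised CPM, lowest in heart 3. The highest rows of the miRNA biotype, Gm26377 at 222, 222 and 215 normalised CPM and Gm55632 at 51.9, 51.4 and 47.9, are hairpin genes, to which reads of longer RNAs running over them would also count. Among processed pseudogenes Gm9794, Gm6136 and Gm10073 led, at means of 99.2 ± 6.71, 88.7 ± 5.27 and 86.2 ± 3.81 normalised CPM (SD, n = 3). Such pseudogenes are intronless copies of expressed genes, and their counts are uncertain for the same reason as those of the mitochondrial copies.

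Sarcomere genes were among the most abundant nuclear mRNAs. The 27 members of the thick filament, thin filament and Z-disc lists took 10.1%, 9.04% and 10.3% of the nuclear counts. Per kilobase of exon, the highest nuclear mRNA was Mb, the oxygen store myoglobin, at 3624 ± 371 normalised CPM (SD, n = 3). The haemoglobin gene Hbb-bs was next, at 2513 ± 571. The ventricular regulatory light chain Myl2 stood at 2443 ± 228, followed by the cytochrome c oxidase subunits Cox8b and Cox6a2 at 1979 ± 262 and 1562 ± 186, the fatty acid carrier Fabp3 at 1416 ± 513 and the ribosomal protein Rplp1. The troponin I of the adult heart, Tnni3, stood at 1392 ± 97.5 and cardiac actin Actc1 at 1245 ± 500 on that scale. Myh6, the fast cardiac myosin heavy chain, stood at 5716, 4720 and 5107 normalised CPM, a fold of 1.21 with heart 1 highest. Ttn, the giant spring titin, took a similar 4437, 3420 and 3783 normalised CPM but only 33.2 ± 4.41 per kilobase, because its transcript is so long. The tropomyosin Tpm1 stood at 4840, 3946 and 5494 and the troponin T Tnnt2 at 2965, 3224 and 3461 normalised CPM.

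Shares within pairs of paralogues mostly varied little. Myh6 made up 87.0%, 86.7% and 87.1% of the counts of Myh6 and Myh7, the slow myosin of the fetal ventricle. Per kilobase the share was 89.5% ± 0.201 (SD, n = 3). Reads of Mhrt, a lncRNA antisense to Myh7, cannot be told apart from those of Myh7 over shared bases, so these shares are uncertain. Tnni3 held 99.96% ± 0.0443 of the counts of Tnni3 and the fetal and slow troponin Tnni1. Atp2a2, the calcium pump of the sarcoplasmic reticulum, held 99.8% ± 0.104 of its family's counts, Ckm 96.5% ± 0.361 of the cytosolic creatine kinases, and Cpt1b, the muscle form of the enzyme that admits long fatty acids to mitochondria, 96.1% ± 0.618 of the Cpt1a and Cpt1b counts. The lactate dehydrogenases were more even, with Ldhb at 57.7%, 49.998% and 61.9% of Ldha and Ldhb counts, lowest in heart 2. Rpl3l, a ribosomal protein of striated muscle, held 72.8% ± 2.89 of the counts of Rpl3 and Rpl3l. Ybx1, the gene deleted in the knockouts of the study, stood at 804, 765 and 848 normalised CPM in these controls. It held 90.6% ± 0.727 of the counts of Ybx1, Ybx2 and Ybx3, and none of the 3 family members reached a 2-fold spread.

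A few sarcomere genes did vary between hearts. Across all members, 912 of 12683 (7.19%) were at least 2-fold apart, a share of 13.2% among members with a mean under 5 normalised CPM, 4.56% from 5 to 50 and 2.64% at 50 or more. Of the 9 thick filament members 1 reached 2-fold, Myh7b, at 15.4, 37.0 and 16.2 normalised CPM, with heart 2 high. Of the 18 thin filament and Z-disc members 2 did. Skeletal actin Acta1 stood at 130, 251 and 397 normalised CPM, a fold of 3.05, with heart 1 low. Cardiac actin Actc1 stood at 1854, 1296 and 2891, a fold of 2.23, with heart 3 high and heart 2 low. Actc1 therefore made up 93.4%, 83.8% and 87.9% of the counts of these actins. The median fold was 1.21 over the thick filament list and 1.34 over the thin filament and Z-disc list, against 1.35 over all members.

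The largest spread of any autosomal member lay in atrial genes. Myl7, the regulatory light chain of atrial myosin, stood at 2.75, 20.4 and 70.3 normalised CPM, a fold of 25.6. Myl4, the essential light chain of atrial myosin, stood at 4.20, 25.4 and 91.3, a fold of 21.7. In both, heart 1 was lowest, heart 2 in the middle and heart 3 highest, with no values near each other. Sln, a calcium pump regulator of the atria, missed the member rule in heart 1 and stood at 0.611, 7.66 and 36.6 normalised CPM. Myl7 was 0.0527%, 0.469% and 1.46% of the counts of Myl2 and Myl7. Of the 10 genes in the atrial list 7 were members. All 7 were highest in heart 3 under all 4 scalings tried, where 28.55% to 48.5% of all members were. With TMM 4 of the 7 were at least 2-fold apart, against 7.19% of all members. Beside Myl7 and Myl4 these were Myl1, at 7.64, 9.40 and 21.4, and Dkk3, at 3.21, 3.92 and 8.46. Nppa, the atrial natriuretic peptide, varied less, at 110, 147 and 165 normalised CPM, and the ventricular peptide gene Nppb stood at 178, 149 and 193. The 10 genes of the list summed to 149, 232 and 425 normalised CPM. In bulk tissue, fewer cells of a type and less RNA per cell cannot be told apart, and whether the share of atrial tissue differed was not tested.

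**Figure D2:**
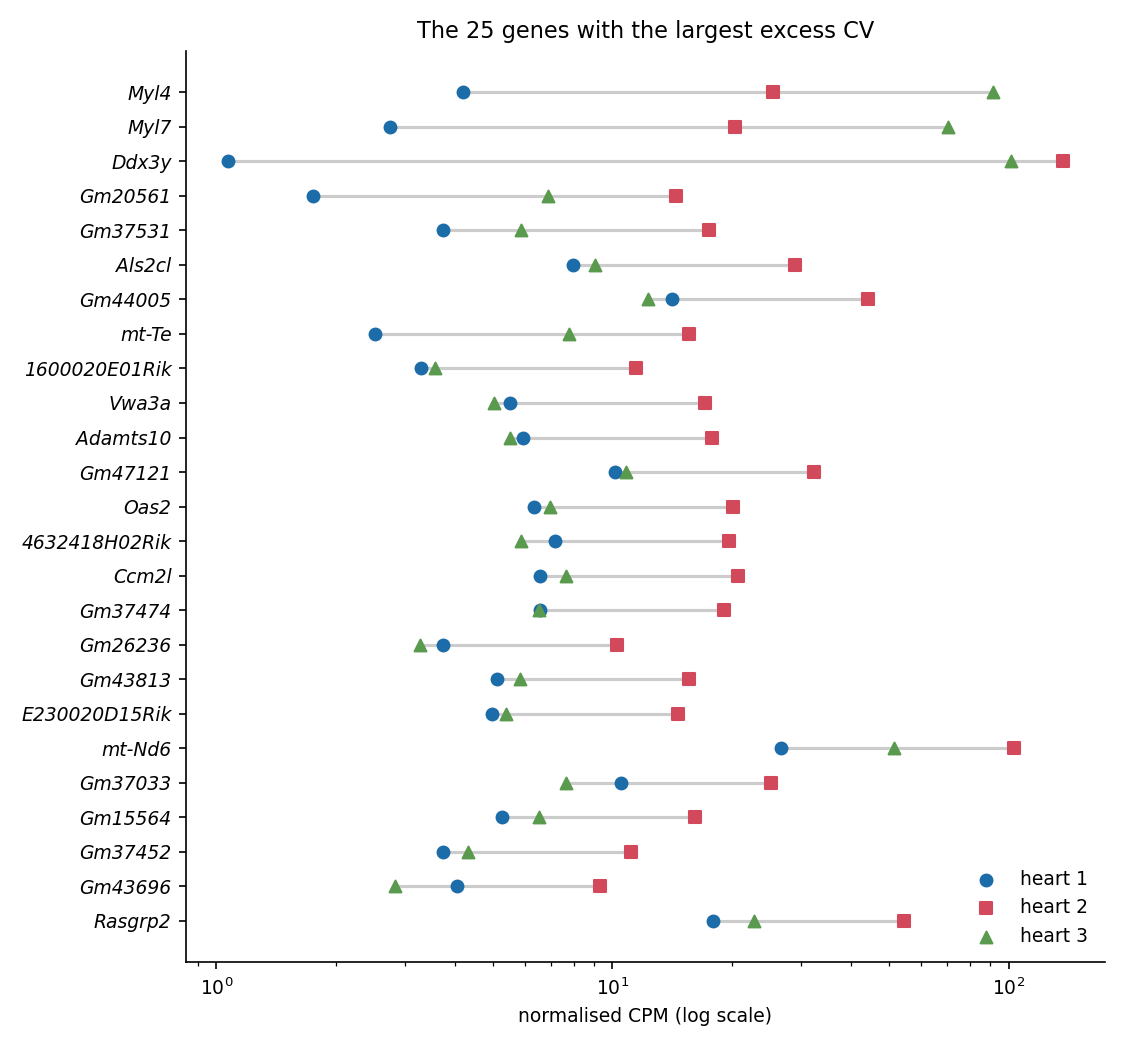
The 25 members with the largest excess CV among those with a mean of at least 5 normalised CPM, with 1 point per control heart on a log axis and a line from lowest to highest. Myl4 and Myl7 are lowest in heart 1 and highest in heart 3, Ddx3y is near 1 in heart 1 alone, and most others are high in heart 2.

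Promoters of 2 contractile genes that varied are printed as RefSeq gives them for GRCm38.p6, from 250 bases before to 50 after the start, because both hold a CArG box, the site of serum response factor in muscle genes. This motif was searched after the values were seen, on both strands since it reads as the same pattern on each, and capitals mark it. Myl7 lies on the minus strand at chr11:5898733-5899032, and Actc1 on the minus strand at chr2:114052826-114053125.
Myl7: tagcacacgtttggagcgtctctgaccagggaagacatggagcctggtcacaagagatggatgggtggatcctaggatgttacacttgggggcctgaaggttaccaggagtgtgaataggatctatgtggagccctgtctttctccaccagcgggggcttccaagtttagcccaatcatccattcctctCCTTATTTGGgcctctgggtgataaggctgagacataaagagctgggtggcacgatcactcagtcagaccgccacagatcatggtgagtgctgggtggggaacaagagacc
Actc1: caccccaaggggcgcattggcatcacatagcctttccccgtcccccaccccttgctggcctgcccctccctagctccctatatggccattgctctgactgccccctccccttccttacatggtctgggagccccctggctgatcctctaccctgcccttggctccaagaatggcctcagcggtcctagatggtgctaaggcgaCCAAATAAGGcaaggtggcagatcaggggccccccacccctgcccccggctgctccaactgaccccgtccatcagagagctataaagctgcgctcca
Of 34 promoters of 25 genes in the thick filament, thin filament and Z-disc lists, 7 held the box (20.6%), those of Acta1, Actc1, Ldb3, Myl3, Myom1 and Nebl. It stood in 1.63% of all 32851 promoters. A match describes the letters only: Myl3 and Nebl, which hold the box, varied by folds of 1.25 and 1.30. The gene of serum response factor itself, Srf, stood at 16.1, 9.31 and 18.4 normalised CPM. It was lowest in heart 2, where 39.7% of all members were lowest, and its bearing on these genes was not tested.

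Calcium handling genes were abundant, with a spread near that of other abundant members. None of 15 members reached a 2-fold spread, against 7.19% of all members and 2.64% of those at 50 normalised CPM or more. Their median fold was 1.27, against 1.35 and 1.30. Atp2a2 stood at 1696, 1235 and 1913 normalised CPM, its inhibitor phospholamban, Pln, at 1155, 741 and 1321, and the calcium release channel Ryr2 at 835, 746 and 828. Heart 2 was lowest in each. Casq2, the calcium buffer of the reticulum, stood at 292, 211 and 373. Of the energy transfer list 1 of 9 members reached 2-fold, the outer membrane channel Vdac1, at 179, 116 and 242 normalised CPM. The ADP and ATP carrier Slc25a4 and the mitochondrial creatine kinase Ckmt2 stood at 1804, 1283 and 1816 and at 841, 895 and 1172.

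Genes of oxidative metabolism were ordered alike across hearts. All 25 members of the citric acid cycle and pyruvate list were lowest in heart 2, against 39.7% of all members, and 24 of 25 were highest in heart 3, against 34.2%. Of the 86 nuclear members of oxidative phosphorylation, the respiratory chain and ATP synthase, 80 were lowest in heart 2 and 73 highest in heart 3. The median folds were above the 1.35 of all members. The citric acid cycle list had a median fold of 1.57 and 2 members at least 2-fold apart (8%), against 7.19% of all members. Oxidative phosphorylation had a median fold of 1.42 and 1 of 86 at 2-fold (1.16%). Citrate synthase, Cs, stood at 301, 187 and 358 normalised CPM and malate dehydrogenase, Mdh2, at 488, 435 and 684. Sdhc, an anchor of succinate dehydrogenase, was the oxidative phosphorylation gene of largest fold, at 121, 69.3 and 145. The complex I members Ndufs6 and Ndufa2 were level, at 626, 644 and 642 and at 346, 341 and 339. The order held with other scalings: in deposited CPM 25 and 86 members were lowest in heart 2, where 67.8% of all members were lowest, and with scaling on nuclear genes 24 and 80.

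Fatty acid genes followed the same order less closely. Of 28 members 21 were highest in heart 3, against 34.2% of all members, and 16 lowest in heart 2, against 39.7%. At least 2-fold apart were 4 (14.3%), against 7.19% of all members. Lpl, the lipase that frees fatty acids from lipoproteins, stood at 3001, 3003 and 4099 normalised CPM, and Cd36, a fatty acid transporter of muscle and endothelium, at 501, 394 and 495. Fabp3, the fatty acid carrier of the cardiomyocyte, stood at 1054, 810 and 1632, with heart 3 high. Hadh, of beta-oxidation, stood at 115, 71.4 and 163, and Etfa, which passes its electrons on, at 135, 85.6 and 174. Etfb, the partner of Etfa in 1 protein, did not share that spread, at 310, 316 and 316. With scaling on nuclear genes 2 of the 28 were 2-fold apart, against 7.63% of all members. In deposited CPM 9 were, against 10.9%.

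Glucose and ketone genes were read at lower levels. Of 19 glycolysis members 1 was 2-fold apart, against 7.19% of all members. This was Hk1, at 19.02, 9.23 and 18.7 normalised CPM, while the muscle hexokinase Hk2 stood at 212, 152 and 182. Pgam2, Eno3 and Aldoa led the list, at 396, 396 and 408, at 301, 277 and 366 and at 294, 227 and 333. Slc2a4, the insulin-responsive glucose transporter, held 96.0% ± 0.926 of the counts of Slc2a1 and Slc2a4. The 8 members for ketone and amino acid use held none at 2-fold. Oxct1, which commits ketones to oxidation, led them at 624, 570 and 836 normalised CPM.

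**Figure D3:**
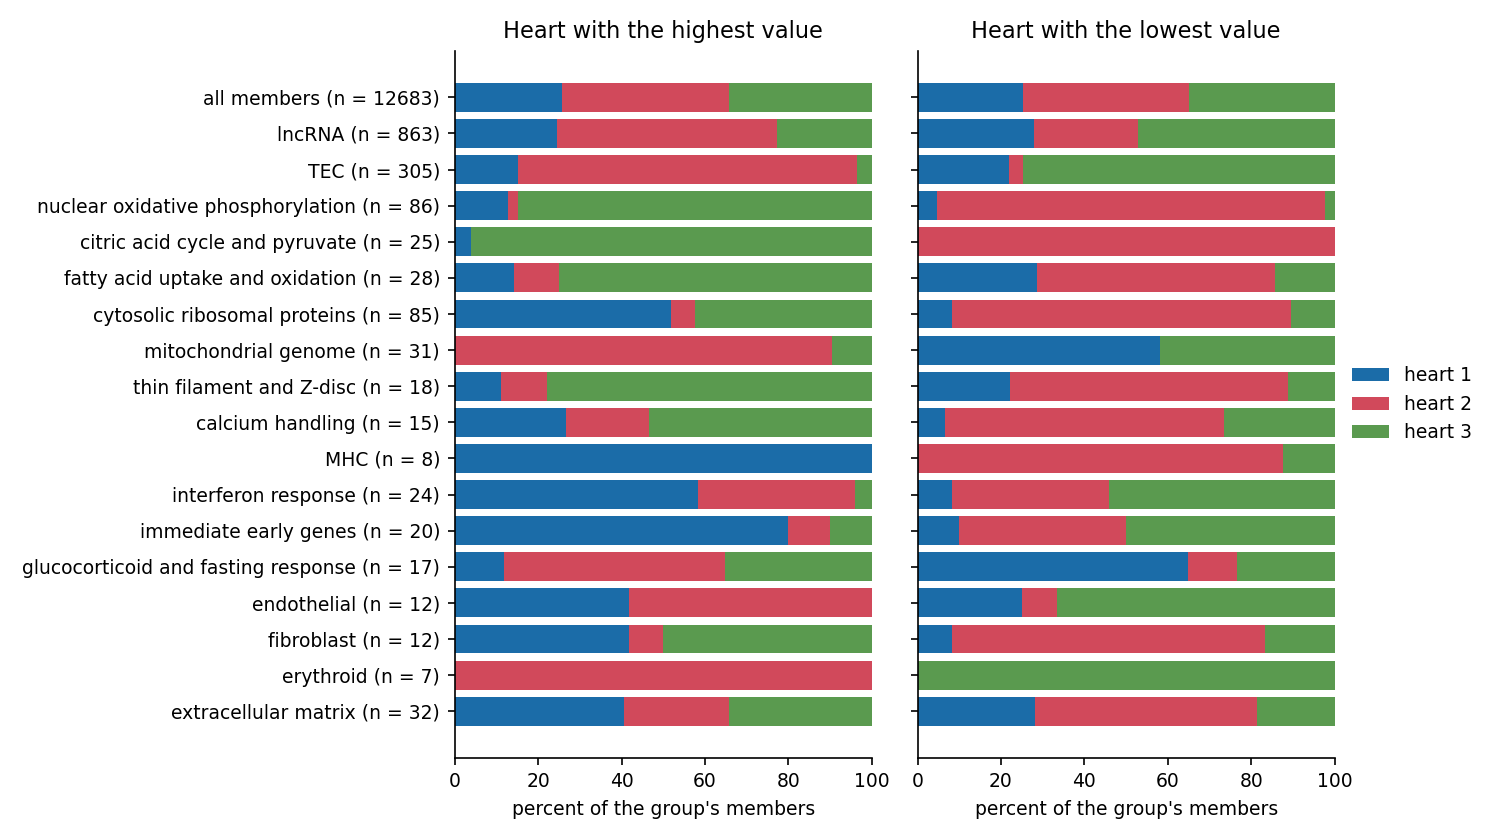
Share of each group's members whose highest value (left) or lowest value (right) lay in heart 1, 2 or 3, with all members on top and n in brackets. Citric acid cycle members are all lowest in heart 2, MHC members all highest in heart 1, and TEC genes mostly highest in heart 2.

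Heart 2 was the one that stood apart in most of the genes at least 2-fold apart. Of the 912 genes at least 2-fold apart, heart 2 stood apart as the higher one in 462, or 3.64% of all members, and as the lower one in 130. The latter were 1.02% of all members. Heart 3 was the lower one in 160 (1.26%) and the higher one in 54 (0.426%). Heart 1 was lower in 65 (0.512%) and higher in 41 (0.323%). Without heart 2 only 159 genes were at least 2-fold apart, without heart 3 447 and without heart 1 636. The 462 genes with heart 2 high included 239 protein-coding genes, 105 TEC loci and 85 lncRNA. Of the 305 TEC members 158 were at least 2-fold apart (51.8%) and 248 were highest in heart 2, against 40.1% of all members, and of the 863 lncRNA members 154 were 2-fold apart (17.8%), against 4.93% of protein-coding members. In deposited CPM, without a scaling factor, heart 2 was highest in 16.8% of all members. There it was highest in 197 TEC loci (64.6%) and in 263 lncRNA members (30.5%), against 455 lncRNA members (52.7%) with TMM. Malat1 had a fold of 3.08. Neat1, the scaffold of nuclear paraspeckles, stood at 460, 1072 and 458 normalised CPM, and Kcnq1ot1, the antisense RNA of an imprinted domain, at 39.8, 87.0 and 38.5. Mhrt, which lies antisense to Myh7, stood at 454, 945 and 300, and its reads cannot be told apart from those of Myh7 over shared bases. Of 8 members in the list of nuclear noncoding RNA, 5 were at least 2-fold apart and 6 highest in heart 2, against 7.19% and 40.1% of all members. The imprinted H19 was not among those 6, at 6.26, 5.22 and 10.9.

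**Figure D4:**
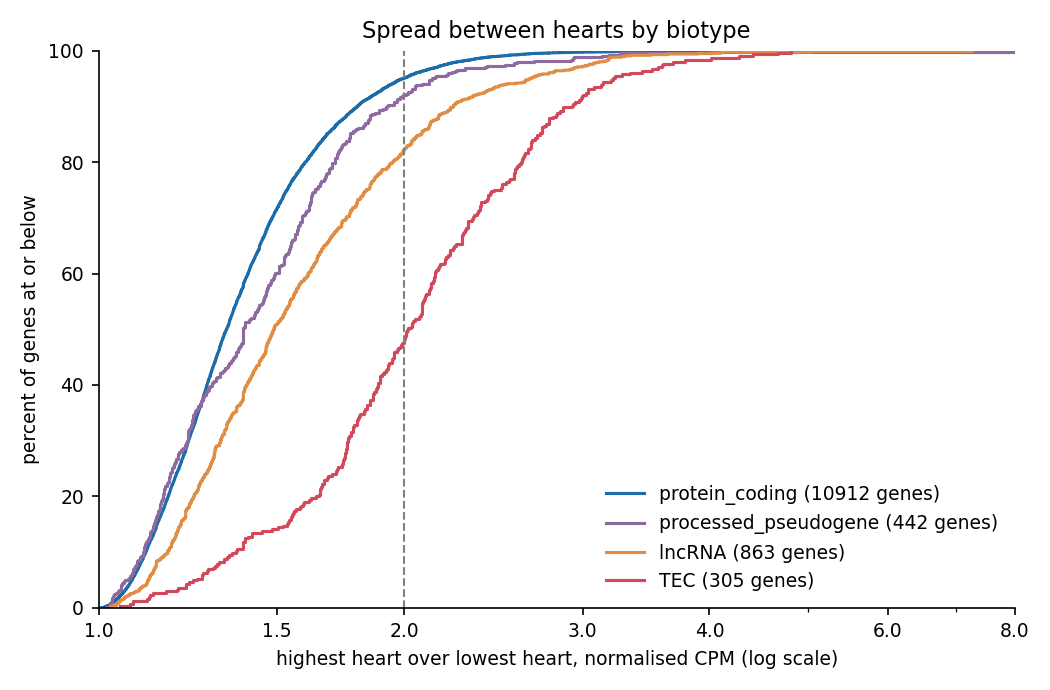
Cumulative percent of members by fold of highest over lowest heart, on a log axis that ends at 8, for the 4 largest biotypes; the dashed line marks 2-fold. The curve of TEC loci lies farthest to the right, with 51.8% beyond the line, against 17.8% of lncRNA, 7.92% of processed pseudogenes and 4.93% of protein-coding genes.

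Several protein-coding genes of large excess CV were high in heart 2. Als2cl stood at 7.94, 28.9 and 9.03 normalised CPM, Vwa3a at 5.50, 17.1 and 5.01, and Adamts10, a secreted metalloprotease of microfibrils, at 5.96, 17.8 and 5.52. Ccm2l, a gene of endothelium, stood at 6.57, 20.8 and 7.65, Rasgrp2, an exchange factor of Rap, at 17.9, 54.5 and 22.8, and Oas2, an interferon-induced sensor of double-stranded RNA, at 6.34, 20.1 and 6.96. In all 6 hearts 1 and 3 lay close together and heart 2 stood apart. Heart 2 also held the highest mitochondrial share, Malat1 level and TEC share and the lowest oxidative phosphorylation share of the nuclear counts (6.54%, against 7.86% and 8.44%). The part of RNA quality or of the library in these values was not tested.

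Other genes set heart 1 or heart 3 apart. Zbtb16, a zinc finger factor induced by glucocorticoids, stood at 40.6, 174 and 116 normalised CPM, a fold of 4.28 with heart 1 low. The glucocorticoid-induced chaperone partner Fkbp5 stood at 19.3, 43.8 and 34.4 and the metallothionein Mt2 at 18.1, 29.9 and 38.7. Of 17 members of the glucocorticoid and fasting list, 4 were at least 2-fold apart, against 7.19% of all members. Of the 17, 11 were lowest in heart 1, against 25.2% of all members. In deposited CPM only 4 were lowest there (23.5%), against 13.4% of all members. Other genes of that list were closer, Klf9 at 245, 259 and 257, Tsc22d3 at 146, 179 and 170, and Sgk1 at 69.6, 69.7 and 68.4. Genes high in heart 1 included the Fos-family factor Fosl2, at 27.5, 9.92 and 12.2, the orphan receptor Nr4a1, at 10.2, 5.48 and 4.64, and the endothelial early gene Apold1, at 31.2, 14.4 and 16.1. Of 20 immediate early members 16 were highest in heart 1 under all 4 scalings, against 25.7% of all members, and 2 reached 2-fold. The highest of them, Klf2, Klf4 and Klf6, stood at 109, 77.8 and 84.2, at 73.8, 68.6 and 57.7 and at 62.8, 60.8 and 60.5.

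Antigen presentation genes shared an order of hearts. All 8 MHC members were highest in heart 1 under all 4 scalings, where 25.4% to 34.7% of all members were. With TMM 7 of the 8 were lowest in heart 2, against 39.7% of all members. The class II genes spread most, with heart 2 the one apart in H2-Ab1 and H2-Eb1 and heart 1 in H2-Aa: H2-Ab1 stood at 11.0, 4.35 and 8.65 normalised CPM, H2-Eb1 at 17.2, 7.31 and 13.5, and H2-Aa at 21.8, 10.8 and 14.1. Their invariant chain Cd74 stood at 28.4, 14.4 and 26.3. Among the class I genes H2-K1 stood at 264, 209 and 214 and their light chain B2m at 275, 185 and 197. Reads of class I genes may be shared between near-identical copies. The interferon response list had 14 of 24 members highest in heart 1, against 25.7% of all members, and only Oas2 at 2-fold or more. Ifi27l2a and Rsad2 were among its leading members, at means of 19.2 ± 4.19 and 19.1 ± 4.53 normalised CPM (SD, n = 3).

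Clock genes were spread unevenly. The list held 20 symbols, of which Arntl is the older symbol of Bmal1. The other 19 were in the table and 18 were members. Of the 18 members 2 were at least 2-fold apart (11.1%), against 7.19% of all members. The median fold of the list was 1.33, against 1.35 over all members. Per2, a repressor of the clock, stood at 29.2, 71.1 and 26.01 normalised CPM, a fold of 2.73, and Per3 at 17.6, 42.6 and 19.9, a fold of 2.42, with heart 2 high in each. Per1 was closer, at 70.1, 78.2 and 59.2. The output factors Tef and Dbp stood at 77.9, 141 and 81.0 and at 47.7, 39.3 and 37.7. The activator Bmal1 stood at 2.44, 1.57 and 1.75 and Ciart, another repressor, at 13.4, 8.88 and 9.78. The labels do not say at which hour the hearts were taken.

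The promoters of Per3 and Ciart show the sites by which the clock is known to reach its genes: the D-box TTATGTAA, bound by DBP, TEF and HLF, and the E-box CACGTG, bound by CLOCK and BMAL1. Both were searched on both strands, with capitals marking each match. Per3 lies on the minus strand at chr4:151044616-151044915 with 2 D-boxes, and Ciart on the minus strand at chr3:95882179-95882478 with 3 E-boxes (RefSeq, GRCm38.p6).
Per3: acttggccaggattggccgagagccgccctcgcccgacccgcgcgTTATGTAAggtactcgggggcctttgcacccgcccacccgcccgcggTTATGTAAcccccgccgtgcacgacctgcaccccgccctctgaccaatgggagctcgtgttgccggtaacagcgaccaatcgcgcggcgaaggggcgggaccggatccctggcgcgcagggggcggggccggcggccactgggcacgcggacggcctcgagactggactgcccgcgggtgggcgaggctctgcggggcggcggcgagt
Ciart: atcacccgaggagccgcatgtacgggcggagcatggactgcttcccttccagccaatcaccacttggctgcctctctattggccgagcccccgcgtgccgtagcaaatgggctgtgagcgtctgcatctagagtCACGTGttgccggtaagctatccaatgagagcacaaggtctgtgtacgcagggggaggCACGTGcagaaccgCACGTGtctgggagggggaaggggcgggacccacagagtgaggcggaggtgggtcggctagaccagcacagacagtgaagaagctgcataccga
Of 19 promoters of 15 clock genes, 6 held an E-box (31.6%), against 7.15% of all 32851 promoters, and 1 held a D-box (5.26%), against 0.938%. Per3 and Ciart did not share an order of hearts.

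Markers of the heart's cell types were checked against the label. Counts of markers at least 2-fold apart stand against 7.19% of all members. All 12 ventricular cardiomyocyte markers were members, and their sum was 30264, 26873 and 32983 normalised CPM. Actc1 and Fabp3, given above, were the 2 at least 2-fold apart. All 12 fibroblast markers were members. The matrix proteoglycan decorin, Dcn, stood at 474, 464 and 512 and the fibroblast receptor Pdgfra at 16.6, 10.7 and 13.04. The fibrillar collagens Col1a1, at 29.7, 16.4 and 35.5, and Col3a1, at 63.9, 31.8 and 55.7, were the 2 at least 2-fold apart, with heart 2 low. All 12 endothelial markers were members and none reached 2-fold. The adhesion molecule Pecam1 stood at 46.0, 52.7 and 46.4, the junction cadherin Cdh5 at 143, 119 and 110, and the fatty acid carrier Fabp4 at 1065, 809 and 754 normalised CPM.

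Mural, lymphatic and immune cells were present at lower levels. All 11 smooth muscle and pericyte markers were members, led by the pericyte gene Rgs5, at 413, 361 and 328 normalised CPM, and 1 was 2-fold apart, the smooth muscle myosin Myh11, at 14.0, 21.3 and 9.34. All 7 lymphatic endothelial markers were members. The lymphatic factor Prox1, which cardiomyocytes also express, stood at 41.5, 20.2 and 35.3, Pdpn at 3.13, 2.00 and 1.25, and the chemokine Ccl21a, which has near-identical copies, at 9.39, 4.53 and 4.01. These were the 3 of the list at 2-fold or more, against 7.19% of all members. Of 6 endocardial markers 5 were members, with Nrg1 the widest, at 2.90, 4.70 and 1.82. Of 13 macrophage and monocyte markers 10 were members, led by Lyz2, at 34.4, 28.1 and 41.0, and the complement component C1qa, at 30.1, 28.6 and 35.8. The haemoglobin scavenger receptor Cd163 was the widest of them, at 4.12, 8.62 and 7.96.

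Blood was visible in the RNA. Of 10 erythroid genes 7 were members, and all 7 were highest in heart 2 and lowest in heart 3, where 35% of all members were lowest, with none at 2-fold. In deposited CPM all 7 were highest in heart 1. The 4 globin genes took 1.03%, 1.18% and 0.735% of the nuclear counts. Hbb-bs stood at 1945, 2361 and 1485 normalised CPM and held 81.4% ± 0.879 of the counts of Hbb-bs and Hbb-bt. Hba-a1 and Hba-a2 are near-identical copies, and Hba-a1 held 51.4% ± 0.0376 of their counts. Of 6 platelet genes 3 were members, and Ppbp was the widest, at 9.62, 10.9 and 4.70. Of 7 neutrophil genes only S100a9 was a member, at 2.29, 1.31 and 2.57. None of 9 T and NK cell markers was a member, and their sum was 3.13, 1.219 and 1.32 normalised CPM. Of 8 B and plasma cell genes 3 were members: Ebf1, which fibroblasts and pericytes also express, at 41.0, 46.8 and 35.5, and the antibody constant genes Igkc, at 4.51, 2.698 and 7.90, and Ighm, at 2.90, 2.00 and 2.38.

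Markers of neighbouring tissues were at or near 0. Of 7 lung epithelial genes only Hopx, also a cardiomyocyte gene, was a member, and 4 had no count in any heart, the surfactant genes Sftpa1, Sftpb and Sftpc and the club cell gene Scgb1a1. No count in a heart allows up to 0.229, 0.261 and 0.188 normalised CPM (3 counts). No thymus gene of 6 was a member and 4 had no count. Of 12 skeletal muscle genes only Ckm and Acta1 were members, both also cardiac, and the fast myosins Myh1, Myh2 and Myh4 were at most 0.0627 normalised CPM. Of 8 adipocyte genes only Fabp4 was a member, and Adipoq stood at 0, 0 and 0.752. In the brown adipocyte list Cox8b and Cox7a1, which the heart expresses, led its 4 members, while Ucp1 was at most 0.0764. Of 8 cartilage and bone genes only Comp was a member, at 0.993, 2.00 and 1.504. Of 8 epicardial and mesothelial genes Wt1 and Tbx18 were members, and Msln had no count. Of 11 Schwann cell and neuronal genes 4 were members, 1 of them at least 2-fold apart, and Th had no count. Of 10 conduction system genes 7 were members, with the calcium channel subunit Cacna2d2 the widest, at 1.30, 1.57 and 4.39, and the pacemaker channel Hcn4 missed the rule, at 1.37, 1.04 and 1.75 normalised CPM.

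**Figure D5:**
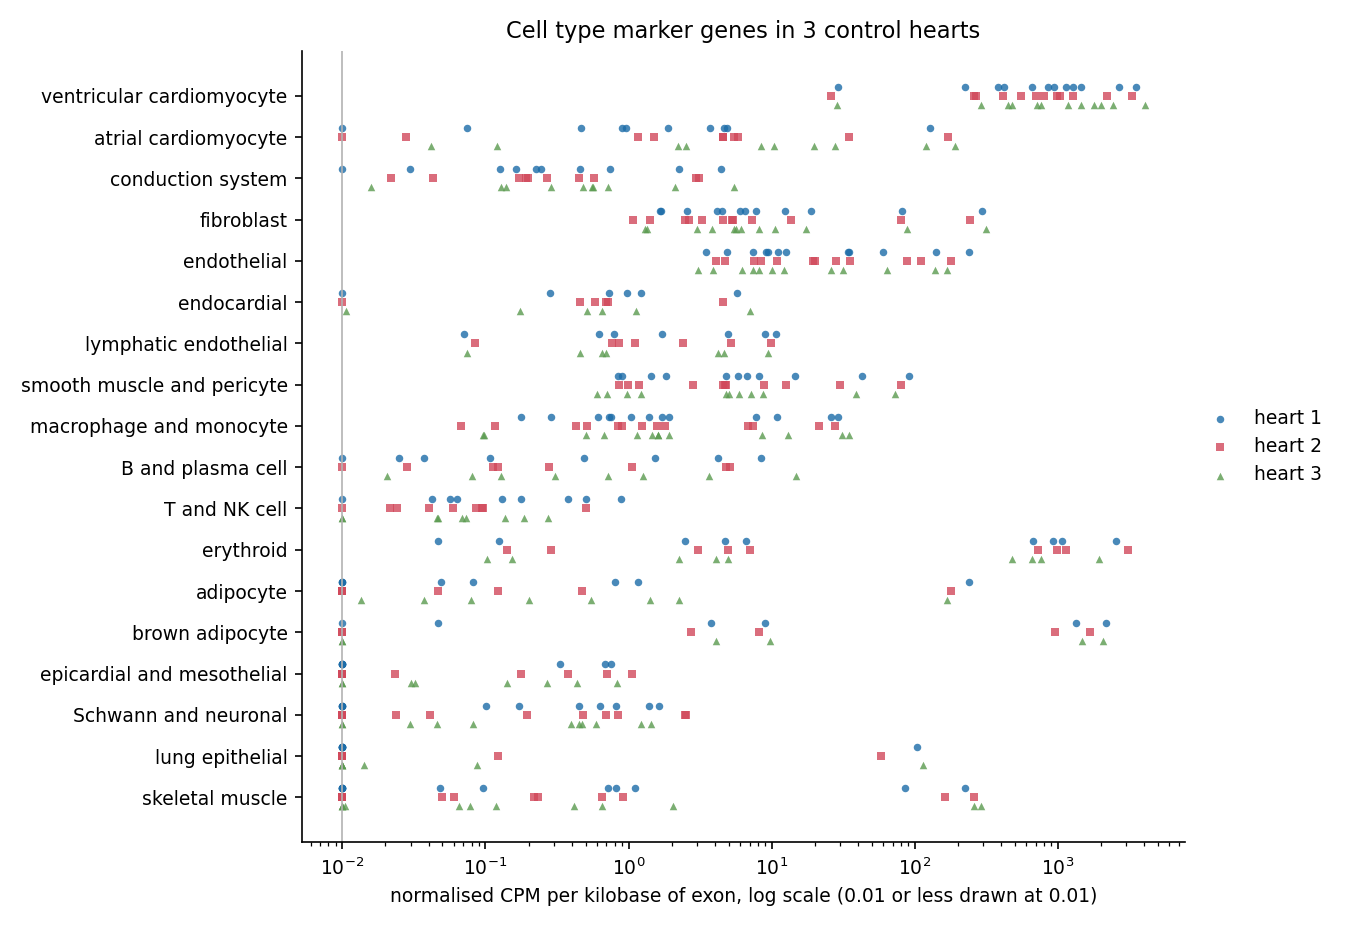
Marker genes of 18 cell types as normalised CPM per kilobase of exon on a log axis, 1 point per gene and heart, with values of 0.01 or less drawn at 0.01. The ventricular cardiomyocyte gene Mb has the highest mean, 3624, followed by the erythroid gene Hbb-bs, at 2513. T and NK cell genes lie below 1, and each of the 10 atrial genes is higher in heart 3 than in heart 1.

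Some genes were almost equal in the hearts. The 10 protein-coding members with the smallest fold among those with a mean of at least 50 normalised CPM were Doc2g, Gpi1, Ptges3, Eif4a1, Cul1, Etfb, Psmd7, Sgk1, Ndufa2 and Art1, with folds of at most 1.02. The glycolytic isomerase Gpi1 stood at 111.2, 110.6 and 111.7 normalised CPM, the translation helicase Eif4a1 at 76.8, 78.0 and 78.3, and the proteasome subunit Psmd7 at 135, 132.5 and 132.7. In these 10 the excess coefficient of variation (the CV less its counting part) was 0. They were picked for the smallest fold, so this follows from the choice and does not show that they are steadier than other genes. Over all members the median excess CV was 0.117, and edgeR's common biological coefficient of variation was 0.177. Ribosomal protein genes were also close, with none of 85 at 2-fold or more, against 7.19% of all members. Their median fold was 1.19, against 1.35. In them 69 were lowest in heart 2, against 39.7% of all members, and 44 were highest in heart 1, against 25.7%. In deposited CPM all 85 were lowest in heart 2, against 67.8% of all members, and 32 were highest in heart 1. Rplp1 stood at 701 ± 33.4 normalised CPM (SD, n = 3).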

How the data were processed

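Per the labels' protocols, hearts were homogenised in TRIzol, reverse transcription used poly(dT) primers, and tagmented double-stranded cDNA was amplified by PCR, with no step named that marks strand. Per the submitters' processing notes, edgeR 4.0.16, Subread 2.1.1 with featureCounts, SAMtools 1.22.1 and STAR 2.7.11 were used with build mm39. Neither the annotation release nor the handling of multi-mapping reads is stated there. The authors' deposited table holds estimated counts, of which 21.9% to 22.7% of detected genes had a fraction, and CPM. The authors' deposited CPM equalled the count over its column sum, with no scaling factor.

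Counts were rounded, and 12683 members were scaled by TMM (edgeR 4.0.16, R 4.3.3), with the full column sum as library size. A gene was called apart at a fold of 2. The excess CV is the square root of CV squared less the mean of 1 over the expected count. Exon lengths came from GENCODE M21 by gene ID (12246 members, 96.6%). Copies of mitochondrial genes were pseudogenes of at least 80% identity over at least 50% of their length (BLAST 2.17.0). Promoters were matched by symbol. The scripts were tested on simulated data. Genes were named by rank: the highest members, the largest and smallest spreads, and in each of 48 lists the leading and the widest members; a few more of each list were named after their values were seen, as were the strand split and the CArG box. Members and lists were chosen with earlier results of these data known. The 6 columns of knockout hearts were not used, and nothing says whether the spread between hearts is more than technical beyond their labels as separate hearts. All 92 spike-in rows held 0 counts. A few genes that the naming rule picks are not reported here.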

Additional observations from a re-analysis of the deposited data

How the results depend on the processing

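No paired analysis was possible because only the control group is used, so no other group shares its replicate numbers in any comparison. The members numbered 14390 at a limit of 0.5 CPM, 7618 at 5 CPM and 12729 with TMM-scaled CPM, and 12850 to 13111 when 1 heart was left out. The 912 genes at least 2-fold apart became 1387 in deposited CPM with no scaling, 257 of the 7618 genes at 5 CPM, 5259 of the 20185 genes with at least 1 count, 4025 at a fold of 1.5 and 90 at a fold of 3. Leaving out 1 heart gave 159 to 636, with the smallest number without heart 2. DESeq2 size factors, scaling on nuclear genes and unrounded counts gave 905 to 968. The common BCV was 0.125 to 0.216 with 1 heart left out and 0.216 with no scaling. Against TMM, deposited CPM moved all genes by 0.09, -0.23 and 0.14 on the log2 scale in hearts 1, 2 and 3, so orders of hearts are relative to the TMM scaling. Per kilobase of exon, the mean share was 19.7% for mitochondrial rRNA, 37.5% for mitochondrial mRNA, 23.2% for their nuclear copies, 1.51% for the sarcomere, 2.90% for nuclear oxidative phosphorylation, 0.811% for lncRNA and 0.137% for TEC, against 23.7%, 25.2%, 12.7%, 3.79%, 2.95%, 2.13% and 0.212% of counts; genes with no length, such as the lncRNA ENSMUSG00000138098, leave the per-kilobase shares. Of the nuclear counts, the mean share was 9.83% for the sarcomere, 7.62% for nuclear oxidative phosphorylation, 3.52% for cytosolic ribosomal proteins, 5.74% for lncRNA and 0.573% for TEC. Of 735 listed or named genes, 134 were at least 2-fold apart; 134 of these were with DESeq2 factors, 127 with scaling on nuclear genes and 115 in deposited CPM, and 90, 39 and 72 without hearts 1, 2 and 3. Among members with a mean under 5 CPM, where counts are few, 13.2% were 2-fold apart; the part of depth was not tested.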

Other observations

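The ion channel, transcription factor, matrix, chaperone and cell cycle lists are described here. Their shares of members at least 2-fold apart were 5.26%, 9.09%, 6.25%, 5% and 0% in that order. The natriuretic and stress peptide list had 11.1%, and all members 7.19%. Of 19 ion channel and connexin members 1 reached 2-fold, the potassium channel Kcnj5, at 10.2, 6.44 and 12.97 normalised CPM. The gap junction protein of the ventricle, Gja1, stood at 116, 82.6 and 111 and the calcium channel Cacna1c at 96.0, 122 and 80.5. Of 22 cardiac transcription factor members, 14 were lowest in heart 2, against 39.7% of all members. Mef2a, Mef2c and Ppargc1a led them, at means of 138 ± 10.4, 129 ± 16.3 and 118 ± 24.5 normalised CPM (SD, n = 3). The factors Irx4, at 6.87, 3.31 and 4.70, and Esrrb, at 3.89, 2.35 and 5.39, were the 2 at least 2-fold apart.

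Of 32 extracellular matrix members only Col1a1 and Col3a1 were 2-fold apart, and 11 complement members held none. Of 20 heat shock and chaperone members 1 was, Hspb1, at 39.7, 28.0 and 56.3 normalised CPM, a fold of 2.01. Hsp90ab1, at 1441, 1756 and 1559, led that list. Of 9 members of the natriuretic and stress peptide list 1 was, the receptor Npr1, at 5.73, 8.62 and 3.70. Of 19 cell cycle genes 8 were members, led by the D cyclins Ccnd2, Ccnd1 and Ccnd3. The proliferation marker Mki67 missed the rule, at 0.764, 0.783 and 1.25, and Cdk1 stood at 0.0764, 0.174 and 0.251. Igf2 and Gm49394 held the same values, 5.19, 2.61 and 9.53, so reads of 1 may be counted for both and their levels are uncertain.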
